A study of Vitis vinifera with 27 samples.

Results

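NAC genes encode a plant family of transcription factors that share a DNA-binding NAC domain, and the 52 described here were the genes whose first protein description named a NAC domain protein, a NAC transcription factor, a NAC-like protein or CUP-SHAPED COTYLEDON, among 27096 genes listed in at least 1 sample. Expression was measured by RNA-seq in berries of 3 Vitis vinifera table grape cultivars with Muscat aroma: Zaomeiguixiang, which has purple-reddish skin and a strong Muscat flavour, Italia, which has a moderate one, and Xiangfei, which has green-golden skin and a strong one. Each cultivar was sampled at EL35 (berries begin to colour and soften), EL36 (veraison complete) and EL38 (harvest-ripe), with 3 replicates in each of the 9 groups and no treatment of the vines. Each replicate was a random pick of berries, harvested from 3 vines grown under plastic in 1 vineyard, and separate vines are not named for each replicate, so p-values measure the spread between such picks and not between vineyards or years. Cultivars at the same stage name were not equally ripe. Soluble solids as measured in the study were lower in Italia than in the other cultivars at every stage, by most at EL35 and EL36. A difference in ripeness cannot be told apart from one between cultivars.

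NAC factors are known from Arabidopsis for work at the ends of developmental programmes: RD26 (NAC72) and ATAF1 (NAC2) act in abscisic acid and stress responses, NAP (NAC29) drives leaf senescence, and the CUP-SHAPED COTYLEDON proteins separate organs. Other members switch on secondary wall formation in the xylem, clear the nucleus from phloem sieve elements or answer DNA damage. In tomato, the NAC factor NOR is required for normal fruit ripening, and in wheat NAM-B1 speeds leaf senescence and the movement of nutrients to the grain. The grape genes carry the names of their best protein match, so a role given below belongs to the namesake in the species stated and was not measured in the berry.

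Libraries held between 16908559 and 27186952 assigned reads (median 23335793) and listed between 26 and 41 of the 52 NAC genes. In 3 libraries, 18 marker genes for seed storage proteins and oil bodies summed to 48128 FPKM (Italia EL35 replicate 3), 16472 FPKM (Zaomeiguixiang EL35 replicate 3) and 1824 FPKM (Xiangfei EL38 replicate 3), against a median of 207 FPKM over all 27. The 34 ripe-berry markers had medians of 5414, 11512 and 15682 FPKM at EL35, EL36 and EL38 over all cultivars. By cultivar the medians in that order were 4298.1, 5923.0 and 15742.3 FPKM in Zaomeiguixiang and 10040.8, 13015.6 and 14516.0 FPKM in Italia. In Xiangfei they were 7403.6, 23501.9 and 13620.5 FPKM, highest at EL36. The 6 libraries that listed the most genes (20958 to 21653) included the 3 rich in seed markers and listed 34 to 41 NAC genes. The 6 with the fewest genes (16745 to 17760) listed 26 to 33. Xiangfei EL36 replicate 1, another of the 6, was the highest of its group for 22 of the 24 NAC genes that averaged 1 FPKM or more, and Xiangfei EL38 replicate 3 for 23 of the 24, against 64.7% and 64.1% of all genes at that level. Whether seeds were removed is not stated in the sources used here. In RNA from berries, fewer cells of a type and less RNA per cell cannot be told apart.

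The berries expressed a small part of the family strongly. FPKM, the count scaled for transcript length and library size, reached a mean of 1 over the 27 samples in 24 NAC genes (46.2% of 52, against 56.8% of all genes), a mean of 10 in 15 and a mean of 100 in 5. Those 5 held 73.3% of the summed NAC FPKM: the NAC25 gene LOC100248744 (289 FPKM), the NAM-B1 gene LOC100259233 (255 FPKM), the NAC100 gene LOC100251801 (197 FPKM), the NAC72 gene LOC100243607 (138 FPKM) and the NAC78 gene LOC100242836 (114 FPKM). At the other end, 19 NAC genes were listed in at most 10 samples and 5 of those in a single one.

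By named role, where 56.8% of all genes reached a mean of 1 FPKM, the counts were as follows, with no test between roles. Among the genes named for senescence, abscisic acid and stress factors, 6 of 7 reached a mean of 1 FPKM, as did 5 of 7 named for the NAM type known from seeds and embryos. The counts were 3 of 8 for the organ boundary type, 2 of 4 for membrane-bound and organelle signalling factors, 2 of 4 for NAC8 genes (named for SOG1, the Arabidopsis DNA damage regulator), 1 of 4 for the phloem type, 1 of 2 for NAC94 and 4 of 9 for NAC genes with other names. None of the 7 genes named for secondary wall and xylem regulators (NAC7, NAC43 and NAC76) reached it, and none had enough reads to be tested. Their highest mean was 0.115 FPKM for the NAC7 gene LOC100243701, which was listed in 7 of 27 samples with at most 1.10 FPKM. Genes with near-identical copies, such as the 4 named NAC25, may share reads, and their separate levels are uncertain to that extent.

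Over the mean of the 3 cultivars, 3 NAC genes changed with stage. Differences were tested with edgeR on the counts of all 27 samples, with p-values adjusted by Benjamini-Hochberg over the 21152 genes tested, which included 37 of the 52 NAC genes. At EL36 against EL35, 1 NAC gene rose and 2 fell (8.11% of 37). Of all genes, 10.8% were called there, 4.57% higher and 6.24% lower. At EL38 against EL35, 1 NAC gene fell and none rose (2.70%), while 10.1% of all genes were called, 3.77% higher and 6.28% lower. Both counts depended on the tool: limma-voom with sample weights called 8 NAC genes at EL36 and 7 at EL38 against EL35, where it called 14.5% and 18.8% of all genes. At EL38 against EL36, edgeR called 0 NAC genes and 0.00473% of all genes, with 6 NAC genes at an unadjusted p under 0.05, while DESeq2 and limma-voom with sample weights each called 3 (and 1.03% and 0.303% of all genes). The median log2 fold change of the NAC genes at EL38 against EL35 was -0.27 and that of all genes tested was 0.00.

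The gene that rose was LOC100261123, named for NAC2, the stress and abscisic acid factor ATAF1 of Arabidopsis. In Zaomeiguixiang it had 25.9, 7.61 and 15.4 FPKM at EL35, 57.8, 235 and 47.6 FPKM at EL36, and 43.7, 28.0 and 28.0 FPKM at EL38. In Italia it had 5.53, 5.47 and 7.89 FPKM at EL35, 4.37, 7.59 and 4.05 FPKM at EL36, and 10.4, 11.5 and 5.67 FPKM at EL38. In Xiangfei it had 9.48, 5.85 and 9.94 FPKM at EL35, 82.9, 6.54 and 9.94 FPKM at EL36, and 14.3, 9.78 and 26.0 FPKM at EL38. The EL36 samples lay above every EL35 sample in Zaomeiguixiang and overlapped with EL35 in the other two. Over the mean of cultivars the log2 fold change at EL36 against EL35 was 1.52 (SE 0.34, edgeR adjusted p = 0.00561), with 2.79 in Zaomeiguixiang (SE 0.62), -0.12 in Italia (SE 0.58) and 1.89 in Xiangfei (SE 0.60). The value over cultivars stayed past the threshold without any 1 library, with a lowest value of 1.06 when Xiangfei EL36 replicate 1 was left out. At EL38 against EL35 it was 0.82 (SE 0.34, adjusted p = 0.132). The other NAC2 gene, LOC100255807, had 73.5 ± 16.4 FPKM at EL36 and 36.1 ± 1.24 FPKM at EL35 in Xiangfei (SD, n = 3 each), with EL36 above EL35 in every sample (log2 fold change 1.27, SE 0.32, edgeR adjusted p = 0.0286). That call was lost without EL35 replicate 1, 2 or 3 (adjusted p = 0.136, 0.0747 and 0.0699) or EL36 replicate 3 (0.169) of Xiangfei, and 3.44% of all genes were called in this comparison. In Italia the gene had 35.8 ± 4.56 FPKM at EL36 and 66.6 ± 42.5 FPKM at EL35 (log2 fold change -0.65, SE 0.31, edgeR adjusted p = 0.351), and over the mean of cultivars the log2 fold change was 0.41 (SE 0.18, adjusted p = 0.157).

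The gene that fell at both later stages was LOC100252516, a weakly expressed gene named NAC25, whose Arabidopsis namesake was first known from the tapetum of the anther. Its lowest, median and highest values over 9 samples were 1.51, 3.07 and 9.32 FPKM at EL35, 0.49, 1.31 and 2.76 FPKM at EL36, and 0.13, 1.40 and 2.83 FPKM at EL38. The ranges overlapped, and the medians of EL36 and EL38 lay below the lowest EL35 sample. On the log2 scale the difference was -1.57 at EL38 against EL35 (SE 0.42, edgeR adjusted p = 0.0166), which held without any 1 library, and -1.39 at EL36 against EL35 (SE 0.41, adjusted p = 0.0329). The EL36 call was less firm: it held in 13 of 27 fits that left out 1 library, with a highest adjusted p of 0.0691, and it was lost without replicate 2 or 3 of Xiangfei EL35 or EL36, replicate 1 or 3 of Italia EL35 or Zaomeiguixiang EL35, or any replicate of Italia EL36 or Zaomeiguixiang EL36. Without the 3 libraries rich in seed markers, the EL36 value was -1.23 (adjusted p = 0.084) and the EL38 value -1.66 (adjusted p = 0.0312).

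The third gene called against EL35 was LOC100241839, named NAC94. Its lowest, median and highest values were 0, 1.58 and 8.38 FPKM at EL35, 0, 0.21 and 1.54 FPKM at EL36, and 0.33, 0.96 and 10.7 FPKM at EL38. Every EL36 sample lay below the EL35 median, while the EL38 samples overlapped with the EL35 range. On the log2 scale the difference was -2.69 at EL36 against EL35 (SE 0.83, edgeR adjusted p = 0.0389) and 0.13 at EL38 against EL35 (adjusted p = 0.993). By cultivar the EL36 values were -4.77 in Zaomeiguixiang (SE 1.58), 0.61 in Italia (SE 1.36) and -3.91 in Xiangfei (SE 1.501). The EL36 call held in 16 of 27 fits that left out 1 library, with a highest adjusted p of 0.123 without Italia EL35 replicate 2, and was also lost without Xiangfei EL35 replicate 3, Xiangfei EL36 replicate 2 or 3, Italia EL36 replicate 1 or 3, Zaomeiguixiang EL35 replicate 1 or 3, or any replicate of Zaomeiguixiang EL36.

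**Figure D1:**
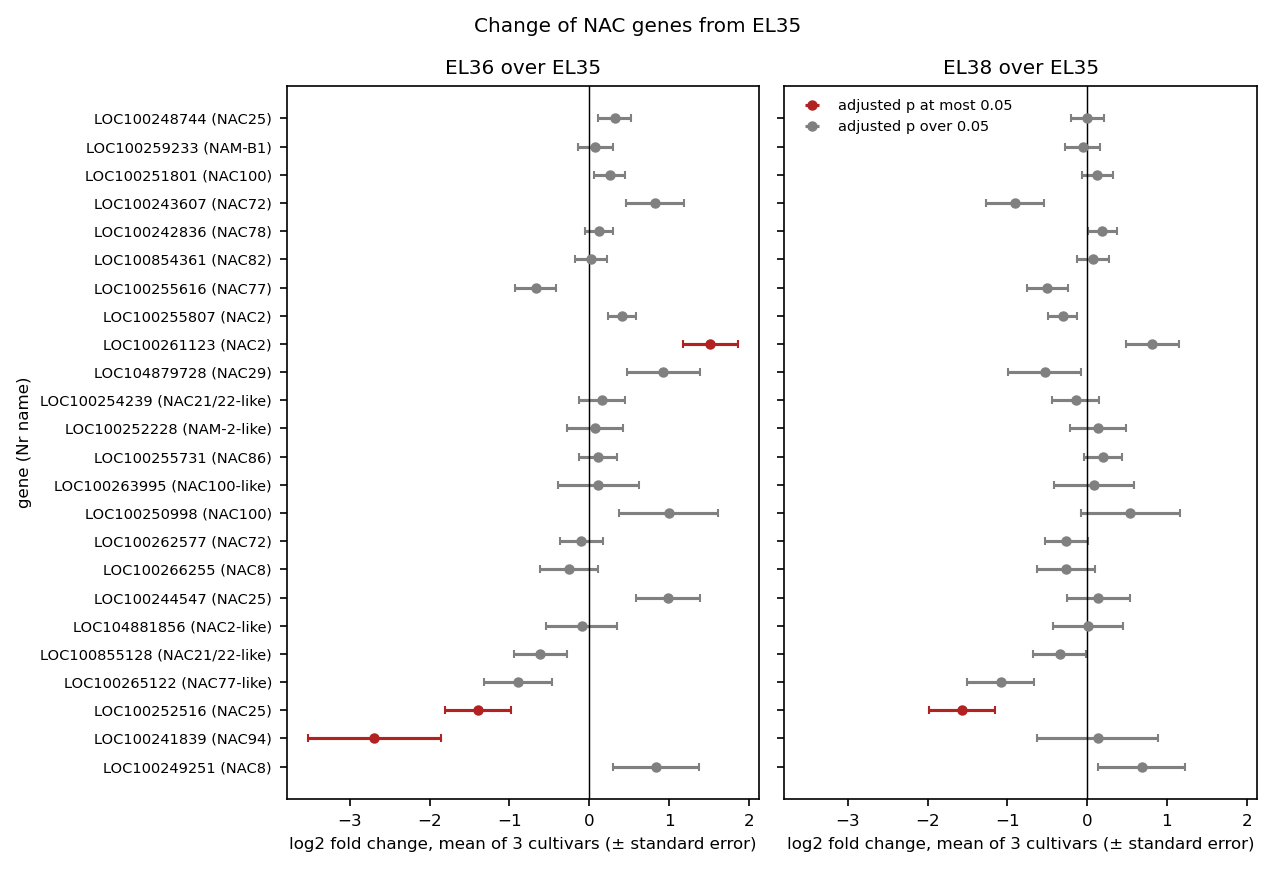
Log2 fold change of the 24 NAC genes that averaged 1 FPKM or more at EL36 (left) and EL38 (right) against EL35, over the mean of the 3 cultivars, with its standard error as the bar. Red points passed an adjusted p of 0.05 in edgeR: 3 genes at EL36 and 1 at EL38, while the 8 genes with the highest FPKM lie within 1 log2 unit of 0 in both panels.

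The NAC100 gene LOC100251801 and the NAC78 gene LOC100242836 had the narrowest spread of group means among the 24 genes. In Arabidopsis, NAC100 is among the NAC messages cut by the microRNA miR164, and NAC78 is a membrane-tethered factor that acts in proteasome stress and in flavonoid synthesis under strong light. LOC100251801 lay between 97.5 and 276 FPKM in all samples, and its group means ran between 149 FPKM (Xiangfei EL36) and 238 FPKM (Zaomeiguixiang EL36), a ratio of 1.61, the smallest among the 24 genes. LOC100242836 had group means between 84.2 FPKM (Xiangfei EL38) and 156 FPKM (Italia EL38), a ratio of 1.85. Its single samples spread more widely, between 43.1 and 205 FPKM. Neither passed the test in any comparison of stages or cultivars. LOC100242836 lies next to the NAC77-like gene LOC100265122 in the gene order of the RefSeq assembly ASM3070453v1, and that neighbour averaged 2.16 FPKM.

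By group means, the 3 most variable of the 5 genes with a mean of 100 FPKM or more ran through the stages in unlike orders in the cultivars. LOC100248744, named NAC25, had 148, 166 and 178 FPKM at EL35, 296, 377 and 350 FPKM at EL36, and 186, 226 and 187 FPKM at EL38 in Zaomeiguixiang. In Italia it had 517, 567 and 533 FPKM at EL35, 351, 253 and 364 FPKM at EL36, and 261, 387 and 264 FPKM at EL38. In Xiangfei it had 199, 145 and 228 FPKM at EL35, 162, 317 and 193 FPKM at EL36, and 251, 311 and 386 FPKM at EL38. The highest stage was thus EL36 in Zaomeiguixiang, EL35 in Italia and EL38 in Xiangfei, with no overlap with EL35 in Zaomeiguixiang and Xiangfei and none with either later stage in Italia. Log2 fold changes at EL38 against EL35 were 0.09 in Zaomeiguixiang (SE 0.36, adjusted p = 0.983), -0.97 in Italia (SE 0.36, adjusted p = 0.154) and 0.88 in Xiangfei (SE 0.36, adjusted p = 0.232), all from edgeR.

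LOC100259233, named for NAM-B1, was likewise highest at EL35 in Italia. It had 245, 210.3 and 229 FPKM at EL35, 273, 269 and 403 FPKM at EL36, and 206, 317 and 237 FPKM at EL38 in Zaomeiguixiang. In Italia it had 573, 551 and 433 FPKM at EL35, 268, 228 and 283 FPKM at EL36, and 205, 316 and 187 FPKM at EL38. In Xiangfei it had 108, 42.3 and 168 FPKM at EL35, 225, 121 and 114 FPKM at EL36, and 161, 193 and 310.4 FPKM at EL38. Every later sample lay below the EL35 samples in Italia, whereas EL38 overlapped with EL35 in the other two cultivars. The log2 fold change at EL38 against EL35 was -0.04 in Zaomeiguixiang (SE 0.38, adjusted p = 1.0), -1.31 in Italia (SE 0.39, adjusted p = 0.0656) and 1.18 in Xiangfei (SE 0.39, adjusted p = 0.137). Without Italia EL35 replicate 3 and the other 2 libraries rich in seed markers, the Italia value was -1.57 (adjusted p = 0.0286, where 5.15% of all genes were called). Those libraries were chosen after the data were seen and include the lowest Italia EL35 sample of this gene. This p-value is thus not separate support for a fall.

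LOC100243607, named for the abscisic acid-responsive factor RD26 (NAC72), had low values at EL38 in Zaomeiguixiang and Xiangfei. It had 178, 179 and 217 FPKM at EL35, 237, 297 and 329 FPKM at EL36, and 48.7, 74.4 and 37.4 FPKM at EL38 in Zaomeiguixiang. In Italia it had 68.6, 88.1 and 72.4 FPKM at EL35, 60.9, 66.3 and 49.2 FPKM at EL36, and 149, 110.4 and 74.1 FPKM at EL38. In Xiangfei it had 30.1, 66 and 111 FPKM at EL35, 854, 48.4 and 170 FPKM at EL36, and 14.2, 14.0 and 85.4 FPKM at EL38. EL38 lay below both earlier stages in every Zaomeiguixiang sample, above EL36 in every Italia sample, and overlapped with both in Xiangfei. At EL38 against EL36 the log2 fold change was -2.61 in Zaomeiguixiang (SE 0.66, adjusted p = 0.151), 0.73 in Italia (SE 0.63, adjusted p = 1.0) and -3.30 in Xiangfei (SE 0.68, adjusted p = 0.0375). In Xiangfei 0.284% of all genes were called, and the call of this gene was lost without Xiangfei EL36 replicate 1 (-2.18, adjusted p = 0.174), Xiangfei EL38 replicate 1 or 2 (adjusted p = 0.17 and 0.169), or Zaomeiguixiang EL36 replicate 3, EL38 replicate 2 or EL38 replicate 3 (0.0504, 0.0531 and 0.0503). LOC100243607 and LOC100248744 lie with 1 gene between them in the order of that assembly.

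**Figure D2:**
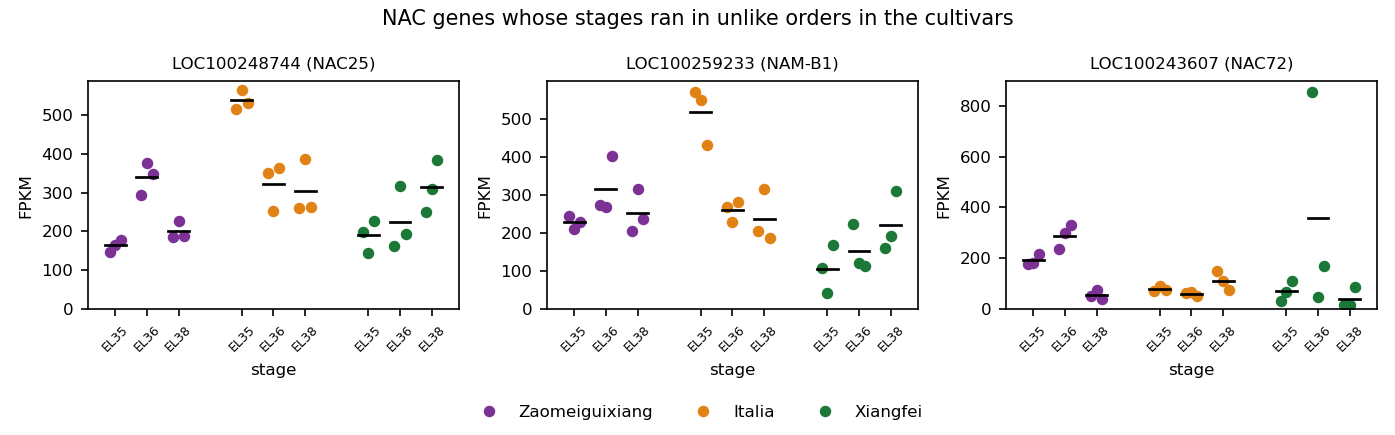
FPKM of the NAC25 gene LOC100248744, the NAM-B1 gene LOC100259233 and the NAC72 gene LOC100243607 by stage within each cultivar, each point 1 sample and each bar the mean of 3. Italia EL35 is the highest group for the first 2 genes (539 and 519 FPKM), and for LOC100243607 a single Xiangfei EL36 sample at 854 FPKM lies above all others.

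Whether stage changes differed between cultivars was tested as 1 interaction in edgeR. No NAC gene passed it (0 of 37, where 0.662% of all genes were called), with 13 at an unadjusted p under 0.05. The smallest adjusted p-values belonged to LOC100243607 (adjusted p = 0.0819) and to the NAC68 gene LOC100263939 (adjusted p = 0.0871), and LOC100259233 and LOC100248744 had adjusted p = 0.0954 and 0.126. The DESeq2 likelihood ratio test called 6 NAC genes, these 4 among them (adjusted p between 0.00167 and 0.00259), where it called 7.49% of all genes, and limma-voom with sample weights called 8, where it called 6.31%. Without the 3 libraries rich in seed markers, edgeR called 2 (0.871% of all genes), of which LOC100243607 was one (adjusted p = 0.0454). Those 3 libraries were chosen after the data were seen, so that p-value is not separate support. Within single cultivars at EL38 against EL35, edgeR called 0 NAC genes in Zaomeiguixiang, Italia and Xiangfei, where 1.53%, 2.95% and 1.17% of all genes were called. NAC genes at an unadjusted p under 0.05 numbered 5, 8 and 5 in that order of cultivars, and DESeq2 called 2, 3 and 1 (5.3%, 8.82% and 6.66% of all genes) and limma-voom 6, 8 and 5 (9.81%, 13.8% and 7.17%).

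Between cultivars 10 NAC genes were called in at least 1 comparison (27.0% of 37, where 31.3% of all genes were), and between stages 3 (8.11%, where 14.6% of all genes were). Over the mean of stages, 8 NAC genes were called in Italia against Xiangfei (21.6% of 37, where 16.1% of all genes were called), 2 higher and 6 lower in Italia, while 6.15% of all genes were called higher and 10.0% lower. In Zaomeiguixiang against Italia 7 were called (18.9%, where 15.5% of all genes were called), 5 higher and 2 lower in Zaomeiguixiang, while 8.56% of all genes were called higher and 6.97% lower. In Zaomeiguixiang against Xiangfei 1 was called, higher in Zaomeiguixiang (2.70%, where 16.0% of all genes were called), with 6 at an unadjusted p under 0.05. That count moved with the libraries used. It moved most, among fits that left out 1 library, without Xiangfei EL36 replicate 1, when 5 NAC genes were called there, and 23.2% of all genes. With limma-voom and sample weights the counts were 11 in Italia against Xiangfei (25.4% of all genes), 15 in Zaomeiguixiang against Italia (35.2%) and 13 in Zaomeiguixiang against Xiangfei (39.2%). Without the 3 libraries rich in seed markers, 9 NAC genes were called in Italia against Xiangfei (16.5% of all genes) and 3 in Zaomeiguixiang against Xiangfei (24.1% of all genes). The comparisons share libraries: of 6 NAC genes called in Italia against each of the other cultivars, 5 were lower and 1 was higher in Italia than in both, and of all genes 6.18% were called in both, 4.03% lower and 1.9% higher in Italia.

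The NAC2 gene LOC100261123 had the most firmly called cultivar difference, and its per-sample values stand above with the stages. Its lowest, median and highest values were 7.61, 28.0 and 235 FPKM in the 9 samples of Zaomeiguixiang, 4.05, 5.67 and 11.5 FPKM in Italia, and 5.85, 9.94 and 82.9 FPKM in Xiangfei. The lowest Zaomeiguixiang sample lay above the Italia median, and the ranges of all cultivars overlapped. Fitted log2 fold changes were 2.34 in Zaomeiguixiang against Italia (SE 0.35, edgeR adjusted p = 7.03e-05) and -1.38 in Italia against Xiangfei (SE 0.34, adjusted p = 0.00709). Both held without any 1 library. At EL36 alone the Zaomeiguixiang against Italia value was 4.14 (SE 0.66, adjusted p = 0.000646, where 2.67% of all genes were called), and it too held without any 1 library. Against Xiangfei, Zaomeiguixiang had a log2 fold change of 0.96 (SE 0.34, adjusted p = 0.054), which was 1.42 (adjusted p = 0.00118) without Xiangfei EL36 replicate 1. That library holds the highest Xiangfei value of this gene and was singled out after the values were seen. The second p-value is thus not separate support for a difference.

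LOC104879728, named for the senescence factor NAP (NAC29), was low in Italia. It had 42.3, 27.8 and 27.7 FPKM at EL35, 56.8, 76.8 and 106 FPKM at EL36, and 10.9, 12.0 and 6.03 FPKM at EL38 in Zaomeiguixiang. In Italia it had 1.95, 4.09 and 7.32 FPKM at EL35, 3.07, 3.94 and 3.38 FPKM at EL36, and 18.5, 2.75 and 1.96 FPKM at EL38. In Xiangfei it had 5.63, 25.1 and 23.5 FPKM at EL35, 123, 22.3 and 39.4 FPKM at EL36, and 2.75, 4.01 and 40.7 FPKM at EL38. Italia lay below both other cultivars in every EL36 sample, and at EL38 the 3 cultivars overlapped. The log2 fold change was -2.46 in Italia against Xiangfei (SE 0.48, edgeR adjusted p = 0.001) and 2.39 in Zaomeiguixiang against Italia (SE 0.48, adjusted p = 0.00147), both held without any 1 library. Zaomeiguixiang against Xiangfei gave -0.07 (SE 0.45, adjusted p = 0.968), with values between 6.03 and 106 FPKM in Zaomeiguixiang and between 2.75 and 123 FPKM in Xiangfei.

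LOC100263995, a gene of the organ boundary type named NAC100-like, was also low in Italia. It had 23.8, 42.6 and 7.65 FPKM at EL35, 21.3, 31.9 and 20.3 FPKM at EL36, and 15.9, 12.8 and 22.7 FPKM at EL38 in Zaomeiguixiang. In Italia it had 0.03, 0.32 and 3.62 FPKM at EL35, 2.30, 1.70 and 2.51 FPKM at EL36, and 7.61, 5.78 and 5.38 FPKM at EL38. In Xiangfei it had 13.8, 22.4 and 9.44 FPKM at EL35, 26.3, 1.41 and 4.76 FPKM at EL36, and 1.98, 2.33 and 15.9 FPKM at EL38. All 9 Zaomeiguixiang samples lay above all 9 Italia samples, by a small margin between 7.65 and 7.61 FPKM, while Xiangfei overlapped with both. Fitted log2 fold changes were 3.03 in Zaomeiguixiang against Italia (SE 0.55, edgeR adjusted p = 0.000578) and -2.08 in Italia against Xiangfei (SE 0.53, adjusted p = 0.00893), both held without any 1 library. The highest EL35 value in Italia, 3.62 FPKM, came from the library richest in seed markers.

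Another NAC100 gene, LOC100250998, singled out after its values were seen, stood out in that same library. In Zaomeiguixiang it had 15.2, 20.5 and 25.9 FPKM at EL36 and 1.53, 4.85 and 8.41 FPKM at EL35, and in Xiangfei 18.2, 7.93 and 11.1 FPKM at EL36 and 3.45, 4.39 and 2.64 FPKM at EL35. Italia samples had 9.11, 5.51 and 2.17 FPKM at EL36 and 0, 0.81 and 51.4 FPKM at EL35. EL36 lay above EL35 in every sample of Zaomeiguixiang and Xiangfei, and the highest value of all was Italia EL35 replicate 3, which held 48128 FPKM of seed markers. At EL36 against EL35 the log2 fold change was 1.00 (SE 0.62, edgeR adjusted p = 0.346) with all libraries and 2.77 (SE 0.49, adjusted p = 0.00095) without the 3 libraries rich in seed markers. At EL38 against EL35 the values were 0.54 (adjusted p = 0.692) and 2.21 (adjusted p = 0.00529). Without those libraries 11.1% and 9.98% of all genes were called in these comparisons. The 3 libraries were left out together, so the part of each is not shown. They were chosen after the data were seen and include the highest EL35 sample of this gene, so these p-values are not separate support for a rise. The part of seed tissue in these values was not tested. The remaining organ boundary genes, 2 named CUP-SHAPED COTYLEDON 2, 1 each named CUP-SHAPED COTYLEDON 1 and 3, and the NAC100-like gene LOC104879786, all averaged under 0.2 FPKM.

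LOC100854361, named for NAC82, an Arabidopsis factor of the response to disturbed ribosome assembly, was the 1 gene higher in Italia than in both other cultivars. Its lowest, median and highest values were 56.8, 88.7 and 117 FPKM in Zaomeiguixiang, 90.3, 116 and 167 FPKM in Italia, and 26.4, 52.2 and 94.4 FPKM in Xiangfei. The lowest Italia sample lay above the medians of both other cultivars, and the ranges of Zaomeiguixiang and Italia overlapped, with the highest Zaomeiguixiang sample above the Italia median. Fitted log2 fold changes were 1.03 in Italia against Xiangfei (SE 0.20, edgeR adjusted p = 0.00115), which held without any 1 library, and -0.72 in Zaomeiguixiang against Italia (SE 0.20, adjusted p = 0.0184), which was lost only without Italia EL36 replicate 1 (-0.63, adjusted p = 0.0508). Between stages it differed by at most 0.08 over the mean of cultivars (EL38 against EL35, SE 0.20, adjusted p = 0.912).

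Of 6 genes of the NAM type tested, 1 was called in Italia against Xiangfei, 1 in Zaomeiguixiang against Italia and none in Zaomeiguixiang against Xiangfei over the mean of stages. Of all genes, 16.1%, 15.5% and 16.0% were called in that order. LOC100259233 was higher in Italia than in Xiangfei (log2 fold change 0.89, SE 0.22, edgeR adjusted p = 0.00794), and its EL35 difference was 2.26 (SE 0.40, adjusted p = 0.00171, where 3.44% of all genes were called). Both held without any 1 library. LOC100248744 was lower in Zaomeiguixiang than in Italia (-0.92, SE 0.21, adjusted p = 0.0043), and at EL35 the difference was -1.83 (SE 0.37, adjusted p = 0.00645, where 2.93% of all genes were called). At EL38 those 2 genes gave -0.23 (SE 0.38, adjusted p = 0.778) for LOC100259233 in Italia against Xiangfei, and -0.77 (SE 0.36, adjusted p = 0.359) for LOC100248744 in Zaomeiguixiang against Italia.

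LOC100255616, named NAC77, was the 1 gene called between Zaomeiguixiang and Xiangfei. Its lowest, median and highest values were 45.2, 65.2 and 109 FPKM in Zaomeiguixiang, 16.3, 41.1 and 76.8 FPKM in Italia, and 4.34, 26.3 and 77.6 FPKM in Xiangfei. At EL36 it had 48.6, 95.6 and 109 FPKM in Zaomeiguixiang and 26.3, 16.5 and 4.34 FPKM in Xiangfei, with no overlap. The log2 fold change of Zaomeiguixiang against Xiangfei was 1.02 over the mean of stages (SE 0.26, edgeR adjusted p = 0.0103) and held without any 1 library. LOC100254239, named for NAC21/22 (an auxin-responsive factor of lateral roots in Arabidopsis) and singled out after its values were seen, was lower in Italia than in both others. Its lowest, median and highest values were 9.93, 19.8 and 55.7 FPKM in Zaomeiguixiang, 3.83, 8.64 and 23.6 FPKM in Italia, and 9.03, 14.5 and 51.4 FPKM in Xiangfei, with overlapping ranges. The log2 fold change was 0.90 in Zaomeiguixiang against Italia (SE 0.29, adjusted p = 0.0394) and -1.13 in Italia against Xiangfei (SE 0.29, adjusted p = 0.0102).

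**Figure D3:**
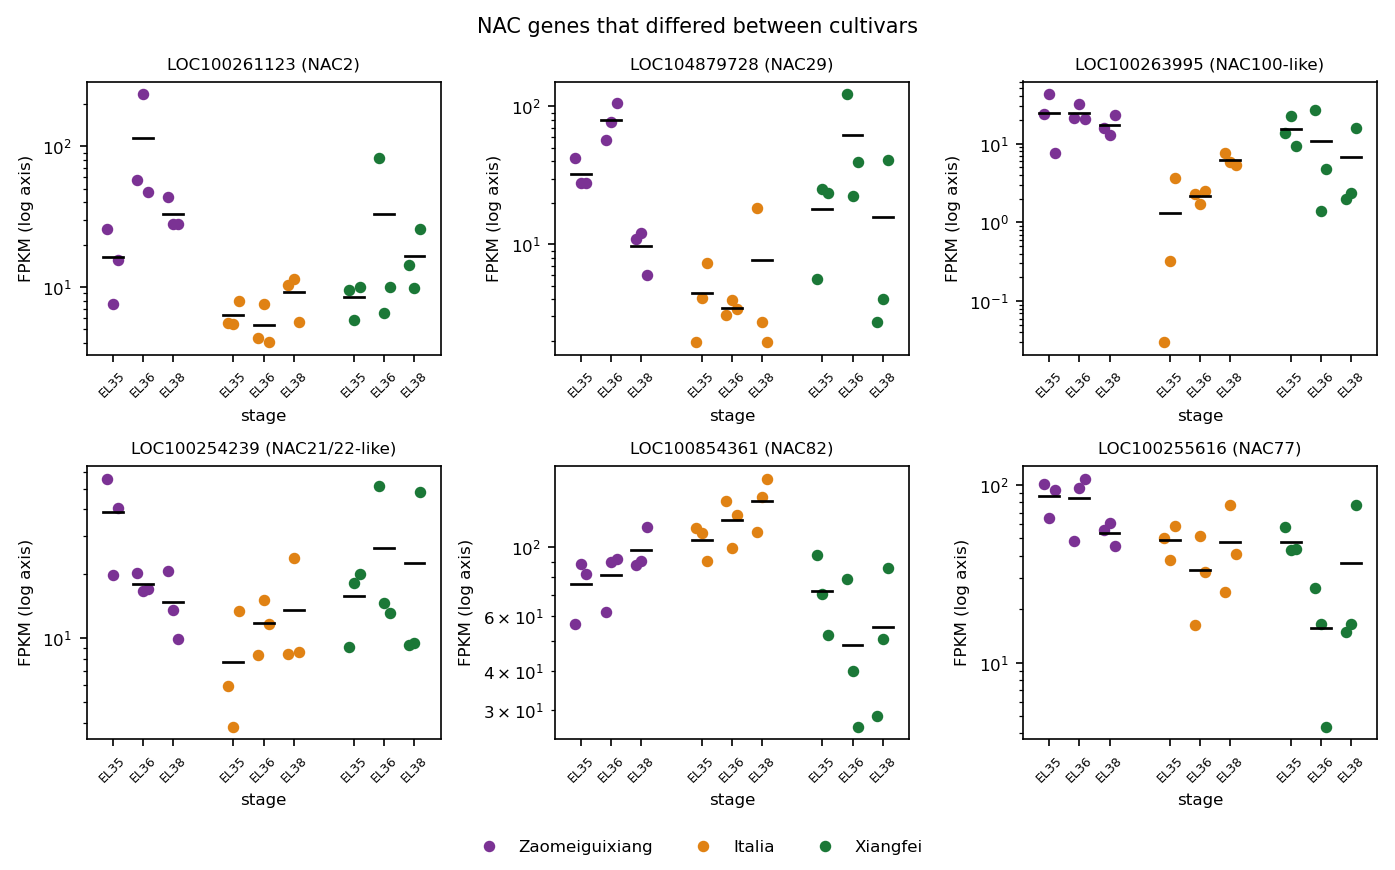
FPKM of 6 NAC genes called between cultivars, by stage within cultivar, on log axes. Each point is 1 sample and each bar the mean of 3. At EL36 the 3 Zaomeiguixiang samples lie above the 3 Italia samples for LOC100261123, LOC104879728 and LOC100263995 and above the 3 Xiangfei samples for LOC100255616, and Italia has the highest mean at each stage for LOC100854361.

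Among weakly expressed genes called between cultivars, 2 were at 0 in most or all of the Italia samples. Several NAC genes with too few reads to be tested were at 0 in all 9 Italia samples, but also in all 9 Xiangfei samples. These had at most 24 counts each, all in Zaomeiguixiang, so their zeros are not particular to Italia. LOC100263939, named for the membrane-tethered factor NTM1 (NAC68), had 3.22, 4.30 and 2.69 FPKM at EL36 in Zaomeiguixiang, 0 in all 3 samples of Italia EL36, and 7.19, 0.27 and 0.54 FPKM in Xiangfei EL36. Outside EL36 no sample exceeded 0.85 FPKM. In Zaomeiguixiang every EL36 sample lay above every other stage, whereas in Xiangfei only EL36 replicate 1 did, and the other 2 EL36 samples were no higher than the highest EL35 samples. Against a floor of 3 counts over the Italia EL36 group, the level was at least 86.5-fold higher in Zaomeiguixiang (271 counts) and at least 66-fold higher in Xiangfei (193 counts, 173 of them from replicate 1). Without that replicate the Xiangfei level was at least 10.2-fold higher (20 counts). The test over the mean of stages called it in Italia against Xiangfei (edgeR adjusted p = 0.0027) and in Zaomeiguixiang against Italia (adjusted p = 0.0382), with the second call held in 14 of 27 fits that left out 1 library. It was lost without Zaomeiguixiang EL35 replicate 3 (adjusted p = 0.108). The adjusted p rose to between 0.0509 and 0.0631 without any replicate of Italia EL35, Italia EL36 or Zaomeiguixiang EL36, or Italia EL38 replicate 1 or 3. The call was also lost without Zaomeiguixiang EL38 replicate 1, whose 2 counts were the only ones of its group. Groups without a count then stood on both sides of the comparison, and the test could not decide. The 2 counted EL38 samples of Italia had 0.26 and 0.45 FPKM.

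LOC100263202, a gene named NAC90-like, was not counted in any of the 9 Italia samples. It had 0.27, 0.25 and 0.13 FPKM at EL35 in Zaomeiguixiang and 1.16, 1.53 and 1.73 FPKM at EL35 in Xiangfei, and at most 0.52 FPKM in any later sample. Xiangfei as a whole (87 counts, 81 of them at EL35) was at least 28.2-fold higher than Italia, taken at a floor of 3 counts over its 9 samples. The gene had enough reads to be tested only because of Xiangfei EL35 (22, 26 and 33 counts), the group where it was highest. Its call in Italia against Xiangfei (edgeR adjusted p = 0.017) is thus not separate support for that difference. The call was lost only without Xiangfei EL38 replicate 3, whose 3 counts were the only ones of its group. Groups without a count then stood on both sides of the comparison, and the test could not decide. The fitted log2 value lay between -4.93 and -3.73 in all 27 fits that left out 1 library. A count of 0 means that the gene was not detected at this depth.

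The leading genes of the remaining roles did not pass the test in any planned comparison. LOC100255731, named for NAC86, which with NAC45 directs the loss of the nucleus in Arabidopsis sieve elements, lay between 7.94 and 32.95 FPKM, with its highest group mean in Italia EL35 (23.4 FPKM) and its lowest in Xiangfei EL35 (10.9 FPKM). LOC100266255, named for NAC8 (SOG1), lay between 1.60 and 20.4 FPKM. Its group means ran between 4.85 FPKM in Xiangfei EL38 and 11.0 FPKM in Zaomeiguixiang EL35, and the log2 fold change at EL38 against EL35 was -0.27 (SE 0.36, edgeR adjusted p = 0.755). Of the 52 NAC genes, 12 passed the test in at least 1 of the 10 planned comparisons (32.4% of the 37 tested, where 39.9% of all genes did), 25 were tested and passed in none, and 15 had too few reads to be tested.

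Genes of 3 processes that NAC factors are known to act on in Arabidopsis were read beside them. Of all genes tested, 10.8% were called at EL36 against EL35 and 10.1% at EL38 against EL35, over the mean of cultivars. In Italia against Xiangfei, over the mean of stages, 16.1% were called. Of 11 chlorophyll breakdown genes tested, 1 rose and 1 fell at EL36 against EL35, and 1 rose and 2 fell at EL38 against EL35. The STAY-GREEN 1-like gene LOC100265112 rose at EL36 (log2 fold change 1.09, SE 0.22, edgeR adjusted p = 0.00258) and the pheophorbide a oxygenase gene LOC100256831 fell at EL38 (-1.06, SE 0.21, adjusted p = 0.0018). Of 12 abscisic acid synthesis genes tested, 2 rose and 1 fell at EL36 and none passed at EL38, while in Italia against Xiangfei 1 was higher and 4 were lower. NCED2, which makes the abscisic acid precursor, rose at EL36 (1.55, SE 0.48, adjusted p = 0.0383). It was lower than in Xiangfei both in Italia (-2.06, SE 0.49, adjusted p = 0.00519) and in Zaomeiguixiang (-2.73, SE 0.50, adjusted p = 0.000722). Of 28 secondary wall genes tested among 62, 2 rose and 7 fell at EL38 against EL35, the cellulose synthase gene LOC100242574 among those that fell (-0.93, SE 0.28, adjusted p = 0.0332). No link between these genes and the NAC genes was tested.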

How the data were processed

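Messenger RNA from 27 berry samples, enriched with oligo(dT) beads, was sequenced (HiSeq2000). The authors removed low-quality and adaptor reads, searched for transcripts outside the grapevine V2 annotation with HISAT2, added them to the reference set, and estimated expression with Bowtie2 and RSEM. The deposited expected counts are the authors' RSEM estimates per gene without normalization, and the deposited FPKM values are scaled by the authors for length and library size and rounded to 2 decimals. Unlisted genes were taken as 0. Libraries held between 16908559 and 27186952 reads, so that 1 library's floor of 3 counts was at most 1.77e-05% of its reads, for counting error only.

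After rounding to integers, the counts went into edgeR 4.0.16 in R 4.3.3 (quasi-likelihood test, TMM, filterByExpr, 9 group means over all 27 samples, 18 residual degrees of freedom, two-sided, Benjamini-Hochberg over all genes tested, called at an adjusted p of at most 0.05). DESeq2 1.42.0, limma 3.58.1 (voomWithQualityWeights), other scalings, filters, sample sets and leaving out each library were alternatives. FPKM carry no TMM factor. The scripts were tested on simulated data with less spread between samples than these counts and with changes in well-counted genes only. That test does not show how well changes in weakly expressed genes are found here.

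The text names the 10 NAC genes with the highest mean FPKM, those called in a stage contrast, the 2 with the smallest interaction p, up to 3 per direction for each cultivar pair, genes at 0 in 1 cultivar and at 1 FPKM or more in another, and the leading gene of each role; others are said to be singled out. Members and lists were chosen with earlier results of these data known. Of the 52, 50 matched the RefSeq table of ASM3070453v1, used for names and gene order only; sequences and coordinates were not used here. The deposited tables were used in full, and no column of another sample was found.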

Additional observations from a re-analysis of the deposited data

Results flagged for a closer look

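For 5 NAC genes, the 3 samples of a stage all lay on one side of another stage in 1 cultivar and all on the opposite side in another (20.8% of the 24 that averaged 1 FPKM or more, where 7.31% of all 15389 such genes did so). LOC100248744 (NAC25) had a ratio of mean FPKM at EL36 over EL35 of 2.08 in Zaomeiguixiang and 0.599 in Italia, and at EL38 over EL35 of 1.22 in Zaomeiguixiang, 0.564 in Italia and 1.65 in Xiangfei. LOC100259233 (NAM-B1) had ratios at EL36 over EL35 of 1.38 in Zaomeiguixiang and 0.50 in Italia. LOC100243607 (NAC72) had ratios at EL36 over EL35 of 1.504 in Zaomeiguixiang and 0.77 in Italia, and at EL38 over EL36 of 0.186 in Zaomeiguixiang and 1.89 in Italia. The NAC25 gene LOC100244547 had ratios at EL38 over EL36 of 0.295 in Zaomeiguixiang and 2.37 in Italia. The NAC2-like gene LOC104881856 had ratios at EL38 over EL35 of 3.92 in Italia and 0.211 in Xiangfei.

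The difference between cultivars was tested as an interaction in edgeR and passed for none of the 5 genes, with adjusted p-values of 0.126, 0.0954, 0.0819, 0.324 and 0.243 in the order given. The first 3 were called by the DESeq2 likelihood ratio test.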

How the results depend on the processing

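Of 18 called differences of named NAC genes, every one of 648 alternative values kept its direction and 598 kept an adjusted p of at most 0.05. Of 16 differences not called, 542 of 576 values kept their direction, 34 changed sign and 7 passed the threshold. All sign changes were at EL38 against EL35 over the mean of cultivars.

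Counts of NAC genes called moved with the tool and the threshold. Shares of all genes stand above for some of these settings. Where none is given, here and in the paragraphs below, a count cannot be read as particular to NAC genes. With limma-voom and sample weights they were 8 (EL36 over EL35), 7 (EL38 over EL35), 3 (EL38 over EL36), 11 (Italia over Xiangfei), 15 (Zaomeiguixiang over Italia), 13 (Zaomeiguixiang over Xiangfei) and 8 (interaction), and at EL38 over EL35 within cultivars 6 in Zaomeiguixiang, 8 in Italia and 5 in Xiangfei. DESeq2 called 3 at EL38 over EL36, 9 for Zaomeiguixiang over Italia, 3 for Zaomeiguixiang over Xiangfei, 6 for the interaction, and 2, 3 and 1 at EL38 over EL35 in Zaomeiguixiang, Italia and Xiangfei. With only the samples compared, 3 were called at EL38 over EL35, 3 at EL38 over EL35 in Zaomeiguixiang and 10 for Zaomeiguixiang over Italia; without a low-count filter, 2 at EL36 over EL35 and 1 for the interaction. At the study's thresholds the counts were 0 at EL36 and EL38 over EL35, 1 for Italia over Xiangfei, 2 for Zaomeiguixiang over Italia and 0 for Zaomeiguixiang over Xiangfei. Without 2 libraries rich in seed markers the counts were 3 at EL38 over EL35, 1 at EL38 over EL36, 3 at EL38 over EL35 in Italia, 4 for Zaomeiguixiang over Xiangfei and 2 for the interaction. Without 3 (chosen after seeing the data) the counts just listed were the same apart from 3 for Zaomeiguixiang over Xiangfei. The count for Italia over Xiangfei without the 3 is given above with the cultivars. The cause was not tested.

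Leaving out 1 library at a time gave 1 to 4 calls at EL36 over EL35, 1 to 2 at EL38 over EL35, 0 to 1 at EL38 over EL36, 8 to 9 for Italia over Xiangfei, 4 to 8 for Zaomeiguixiang over Italia, 1 to 5 for Zaomeiguixiang over Xiangfei and 0 to 1 for the interaction, and at EL38 over EL35 0 in Zaomeiguixiang, 0 to 3 in Italia and 0 to 1 in Xiangfei. The 5 came without Xiangfei EL36 replicate 1, the 4 for Zaomeiguixiang over Italia without Italia EL36 replicate 1 and the 3 in Italia without Italia EL35 replicate 3. The 1 call at EL36 over EL35 came without Xiangfei EL35 replicate 3, Xiangfei EL36 replicate 2 or 3, Italia EL36 replicate 1 or 3, Zaomeiguixiang EL35 replicate 1 or 3, or any replicate of Zaomeiguixiang EL36; 2 calls at EL38 over EL35 came without Xiangfei EL38 replicate 3, Italia EL35 replicate 3 or Italia EL36 replicate 3. For Zaomeiguixiang over Xiangfei, 3 came without Xiangfei EL38 replicate 3 and 2 without Xiangfei EL35 replicate 3, Zaomeiguixiang EL35 replicate 2 or Zaomeiguixiang EL36 replicate 1 or 3.

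Values that changed sign at EL38 over EL35 were, for LOC100248744 (0.00 with all libraries), 0.034 with DESeq2 and with its size factors, 0.015 with limma-voom, 0.008 with reference genes only and -0.059 to 0.091 leaving out 1 library. LOC100259233 gave 0.102 with limma-voom and -0.171 to 0.186 leaving out 1 library. LOC100854361 gave -0.017 with limma-voom, -0.046 and -0.068 without the 2 and the 3 seed-rich libraries and -0.004 to 0.193 leaving out 1. LOC100255731 gave -0.04 without the 3. Leaving out 1 library gave -0.273 to 0.873 for LOC100263995, -0.565 to 0.017 for LOC100266255, -0.864 to 0.764 for LOC100241839 and -0.157 to 1.284 for LOC100263939, which was -1.088 with limma-voom.

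Replicate numbers did not pair the samples: deviations from the group means correlated with a mean r of -0.003 for the same number (108 pairs) and 0.003 for different numbers (216 pairs). With the replicate number as a block, 2 NAC genes were called at EL36 over EL35 and 5 for Zaomeiguixiang over Italia; LOC100248744 was 0.001 and LOC100241839 -0.224 at EL38 over EL35.

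With a minimum of 5 FPKM, 18 NAC genes remained in place of 24. With a pseudocount of 0.1, 16 of 18 log2 FPKM differences moved by less than the spread between samples. Depth limits the 15 NAC genes that were not tested, and the 3 replicates a group limit differences within a single stage.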

Other observations

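Among the 24 NAC genes that averaged 1 FPKM or more, 12 had their highest sample in 1 of the 6 libraries that listed the most genes. Of those 12, 7 had it in libraries rich in seed markers (5 in Italia EL35 replicate 3 and 2 in Xiangfei EL38 replicate 3). The highest group mean fell in Zaomeiguixiang EL35 for 7 of the 24, in Zaomeiguixiang EL36 for 6 and in Italia EL35 for 4. The lowest fell in Xiangfei EL38 for 6 and in Xiangfei EL36 for 5. The matching shares of all genes were not counted, so these counts cannot be read as particular to NAC genes. Some NAC genes were called without the 3 seed-rich libraries that were not called with them. The NAM-2-like gene LOC100252228, which averaged 16.9 FPKM, then gave a log2 fold change of 1.25 in Zaomeiguixiang against Xiangfei (edgeR adjusted p = 0.00138) and of 0.79 in Italia against Xiangfei (adjusted p = 0.0314). LOC100263995 gave 4.81 at EL38 against EL35 in Italia (adjusted p = 0.0053) and an interaction with an adjusted p of 0.0279. These genes and libraries were singled out after their values were seen.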
